A study of Mus musculus with 2 samples.

Results

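The receptors through which neurohypophyseal and intermediate lobe cells can be addressed by transmitters and by the 2 neurohypophyseal hormones were followed as a gene group. A gene was included when its symbol was that of an ionotropic glutamate, GABA, dopamine, adrenergic, serotonin, acetylcholine, opioid or vasopressin receptor, or *Oxtr*. It also needed at least 1 UMI (unique molecular identifier, the tag that marks 1 captured mRNA molecule) in the deposited barcodes. These were 737280 unfiltered barcodes for pool 1 but only 1500 for pool 2. Of 27998 genes in the files, 95 had such a symbol and 57 of these had a UMI. Of the 57 members, 55 encode receptor subunits and 2, *Chrna1os* and *Grin1os*, are antisense RNAs that share a receptor's name. In the cells that passed the quality limits, 49 members had a UMI, and the 55 receptor genes summed to 1269 UMIs, or 0.0890% of all UMIs.

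The neurohypophysis (NH) is the lobe of the pituitary in which axons of hypothalamic magnocellular neurons release oxytocin and vasopressin, between glial cells called pituicytes. The adjoining intermediate lobe (IL) holds melanotropes, endocrine cells that process *Pomc* and are known to be innervated by dopamine and GABA fibres. Ionotropic glutamate receptors (AMPA, kainate and NMDA types) and GABA-A receptors are ion channels built from several subunits, each from its own gene, whereas GABA-B, adrenergic, dopamine, opioid, muscarinic, vasopressin and oxytocin receptors signal through G proteins.

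Tissue came from male C57BL/6 mice of 3 months, 5 animals in each of 2 pools, and was dissected, dissociated with Liberase TM and papain, and sequenced as single cells. Both pools are replicates of 1 condition, no group was treated, and single mice cannot be told apart within a pool. The dissected NH carried IL tissue along, so IL cells are part of the samples. The published cut-offs left 273 cells of pool 1 and 255 of pool 2, with 699676 and 726706 UMIs and medians of 2050.0 and 2330.0 UMIs per cell. They comprised 196 pituicytes, 148 IL cells, 95 macrophage/microglia, 42 T-cell like, 23 epithelial-like, 13 vascular endothelial and 11 VLMC cells, and the pools shared 0 barcodes. The markers of each type had their highest summed level in that type in both pools. The VLMC (vascular and leptomeningeal cell) group, deposited as a joint group with oligodendrocyte precursors, also held 5 of 5 oligodendrocyte markers at 17088 to 18137 CPM (UMIs of a gene or list per 1000000 UMIs of its cell type). Markers of anterior lobe hormone cells stood at 35358 CPM in epithelial-like cells of pool 1 against 2758 in pool 2, and at 188 against 9369 in IL cells. Of the neuron markers, 5 of 5 had a UMI in IL cells, summing to 697 CPM in both pools, against 25.5 and 27.6 in pituicytes. Whether these oligodendrocyte, anterior lobe and neuron markers came from admixed cells was not tested, nor was any part of such cells in the receptor values.

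Some genes with unlike counts in pituicytes and IL cells were looked up in the annotation of the build to which the reads had been aligned, GRCm38 (mm10). *Grik3*, the kainate receptor subunit of pituicytes, lies on chromosome 4 from 125490700 to 125714173 on the plus strand, and *Gria3*, their AMPA receptor subunit, on chromosome X from 41400854 to 41678601 on the plus strand. *Gria2* (chromosome 3, 80681450 to 80802835), *Grin1* (chromosome 2, 25291181 to 25319187) and *Gabra4* (chromosome 5, 71569749 to 71658308), found in IL cells, are all on the minus strand. The 250 bases upstream of the RefSeq start site are given for 4 of them, because these windows belong to genes with opposite patterns across the tissue. RefSeq start windows were matched to 39 of the 57 members. Capitals mark matches to the GC box GGGCGG, found in 32.7% of 32851 windows of the same length, and to the RE1 core AGCACC, any 2 bases and GGACAG, found in 0.0457%, each searched on both strands. The windows of *Grik3* (chr4:125490446-125490695, plus strand), *Gria2* (chr3:80802836-80803085, minus strand), *Grin1* (chr2:25319188-25319437, minus strand) and *Gabra4* (chr5:71658309-71658558, minus strand) read, 5′ to 3′ on the strand of the gene:
Grik3: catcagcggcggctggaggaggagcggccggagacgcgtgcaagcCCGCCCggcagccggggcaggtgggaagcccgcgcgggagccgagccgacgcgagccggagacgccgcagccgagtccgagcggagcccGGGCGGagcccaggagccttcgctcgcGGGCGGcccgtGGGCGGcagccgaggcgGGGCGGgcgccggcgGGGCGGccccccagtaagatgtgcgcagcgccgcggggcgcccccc
Gria2: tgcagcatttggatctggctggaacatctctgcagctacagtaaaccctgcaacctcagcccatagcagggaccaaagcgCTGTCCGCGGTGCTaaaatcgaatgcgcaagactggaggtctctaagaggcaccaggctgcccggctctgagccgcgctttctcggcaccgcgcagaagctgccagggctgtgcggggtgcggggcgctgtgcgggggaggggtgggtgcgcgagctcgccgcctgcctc
Grin1: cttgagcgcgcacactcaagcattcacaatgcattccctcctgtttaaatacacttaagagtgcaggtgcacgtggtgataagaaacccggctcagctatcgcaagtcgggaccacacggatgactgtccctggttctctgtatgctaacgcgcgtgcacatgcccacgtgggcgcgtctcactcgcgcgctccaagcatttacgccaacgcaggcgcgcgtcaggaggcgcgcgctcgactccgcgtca
Gabra4: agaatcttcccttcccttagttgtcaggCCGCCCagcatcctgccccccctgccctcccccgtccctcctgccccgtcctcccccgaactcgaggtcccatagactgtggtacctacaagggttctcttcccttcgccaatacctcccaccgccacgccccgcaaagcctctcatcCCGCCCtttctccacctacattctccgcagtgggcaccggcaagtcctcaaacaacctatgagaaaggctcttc
The *Grik3* window held 6 GC boxes, a number reached by 0.886% of windows, and was 82.0% G and C, against a median of 52.4%. The *Gria2* window held no GC box and 1 RE1 core, the motif known to bind the repressor REST, on the other strand at 170 to 157 bases before the start. The *Gabra4* window held 2 GC boxes and the *Grin1* window neither motif. These matches are descriptions of letters and were not tested as binding sites.

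Receptor UMIs were spread very unevenly over the genes and over the tissue. *Grik3* (278 UMIs), *Gria2* (231) and *Gria3* (128) together made up 50.2% of all receptor UMIs in the cells kept, while 33 of the 49 members seen there had fewer than 10 UMIs and 10 had a single one. All receptor genes together reached 993 and 978 CPM in pituicytes of pools 1 and 2 and 1091 and 1455 in IL cells. Macrophage/microglia had 147 and 408, epithelial-like cells 466 and 457, and T-cell like cells 36.4 and 34.4. VLMC had 353 and 861 CPM on only 3 and 13 UMIs, and vascular endothelia 88.1 and 320 on 1 and 4 UMIs. IL cells carried UMIs of 38 of the 55 receptor genes and pituicytes of 19. Only 6 members passed the filter on low counts and could be tested, *Grik3*, *Gria3*, *Gria2*, *Grin1* and *Gabbr1* among them, and a gene can pass through the type where it is high. *Grik3* and *Gria3* passed only through pituicytes, and *Grin1* only through IL cells. How many of the tested members were called higher was therefore partly set by the filter. The filter kept 4510 genes in all.

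**Figure D1:**
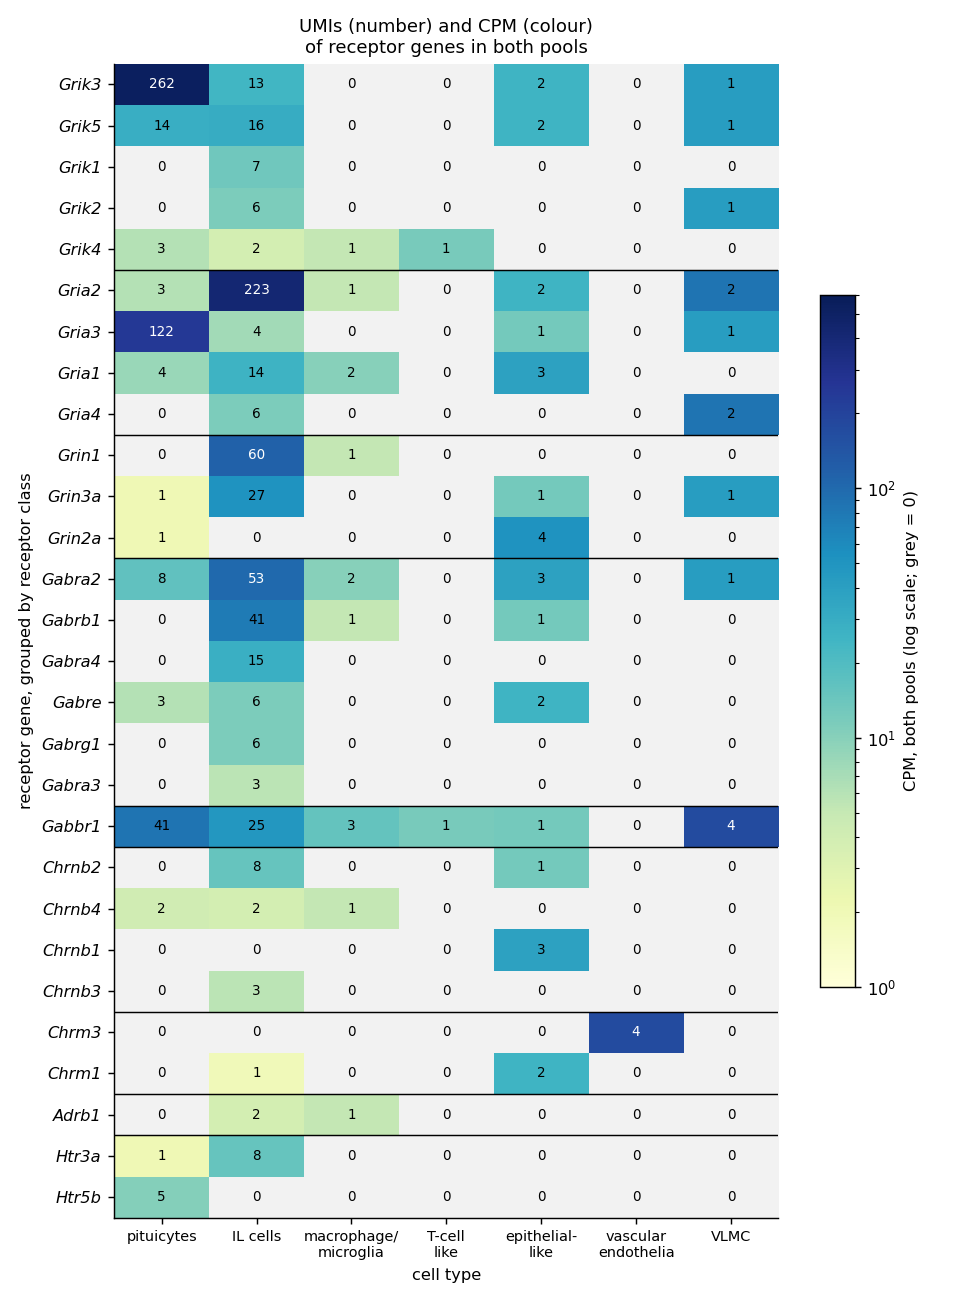
UMI counts (numbers) of receptor genes reported here with at least 3 UMIs in the cells kept, by cell type (columns) and receptor class (blocks of rows), summed over both pools, with colour giving CPM on a log scale and grey a count of 0. *Grik3* (262 UMIs) and *Gria3* (122) stand out in pituicytes, and *Gria2* (223), *Grin1* (60) and the GABA-A subunit genes in IL cells.

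Each cell type was compared with the mean of the other 6 on UMI sums per pool and type, and calls needed both an adjusted p no higher than 0.05 and a natural log (ln) fold change no smaller than 1. The types were themselves defined from expression, on the most variable genes in these cells, so the calls are not independent of that grouping. Nor are they independent of the filter, which *Grik3*, *Gria3* and *Grin1* passed only through the type in which they were called. In pituicytes, 3 of the 6 tested members were called higher, *Grik3*, *Gria3* and *Gabbr1*, beside 16.8% of all 4510 genes. In IL cells 3 of 6 were called, *Grin1* and *Gria2* among them, beside 16.9% of all genes, and in macrophage/microglia 1 of 6 beside 16.5%. No member was called higher by edgeR in T-cell like (9.47% of all genes), epithelial-like (8.0%), vascular endothelial (3.41%) or VLMC cells (2.88%). At an unadjusted p under 0.05, 0 members were higher in the first 3 of these types and 1, *Gabbr1*, in VLMC, and DESeq2 called 0 in each among the members to which it gave an adjusted p.

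The kainate receptor genes, whose products form glutamate-gated channels, were led by *Grik3* in pituicytes. Pituicytes held 121 *Grik3* UMIs in pool 1 and 141 in pool 2, which is 513 and 556 CPM (535 ± 30.3, SD, n = 2 pools). IL cells held 4 and 9 UMIs, or 14.2 and 36.1 CPM, and macrophage/microglia, T-cell like and vascular endothelial cells held 0. Both pools were thus high in pituicytes and did not overlap with any other type, as read from these counts, without a share over all genes to set beside it. Set against the mean of the remaining types, the ln fold change reached 4.57 ± 0.33 (SE, edgeR adjusted p = 2.15e-40), a size that depends on edgeR's prior count because several types were at 0, as it does for the genes that follow. The ln fold change was 4.49 without pool 1 and 5.04 without pool 2. *Grik5*, a subunit that forms channels only together with other kainate subunits, had 14 UMIs in pituicytes and 16 in IL cells, or 28.5 ± 4.3 and 30.7 ± 13.3 CPM (SD, n = 2). *Grik1* had 7 UMIs and *Grik2* 6 in IL cells and both had 0 in pituicytes, and *Grik4* had between 1 and 3 UMIs in 4 types. As a class, kainate receptor genes summed to 570 ± 31.4 CPM in pituicytes and 84.3 ± 33.8 in IL cells.

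The AMPA receptor genes, whose channels carry fast glutamate transmission, were divided between the same cell types by subunit. *Gria3* had 64 and 58 UMIs in pituicytes of pools 1 and 2, or 272 and 229 CPM (250.2 ± 30.2, SD, n = 2), against 2 and 2 UMIs in IL cells. *Gria2*, the subunit that makes AMPA channels poorly permeable to calcium, had 99 and 124 UMIs in IL cells, or 352 and 497 CPM (424 ± 102), and in pituicytes 0 and 3. The 3 pituicyte UMIs came from 1 cell. For neither gene did the pools of these types overlap, and the order of the types was opposite for the 2 genes. No share of all genes without such overlap was computed. *Gria3* reached an ln fold change of 4.10 ± 0.40 in pituicytes (SE, edgeR adjusted p = 5.40e-23) and *Gria2* one of 4.23 ± 0.32 in IL cells (adjusted p = 1.12e-36). Without pool 1 these were 3.84 and 4.43, and without pool 2 they were 5.05 and 5.36. *Gria1* had 14 UMIs in IL cells (10 and 4), 4 in pituicytes (3 and 1) and 3 in epithelial-like cells (0 and 3). Over both pools these were 26.4, 8.18 and 38.3 CPM. *Gria4* had 6 UMIs in IL cells and 2 in 1 VLMC of pool 2, or 11.3 and 84.8 CPM over both pools.

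NMDA receptor genes were found mainly in IL cells. *Grin1*, the subunit present in every NMDA receptor, had 29 and 31 UMIs in IL cells, or 103 and 124 CPM (114 ± 14.9, SD, n = 2), 0 in pituicytes and 1 in macrophage/microglia. Its ln fold change in IL cells was 4.32 ± 0.57 (SE, edgeR adjusted p = 1.31e-12). DESeq2 did not call *Grin1* in IL cells, as it received no adjusted p there. *Grin3a*, which replaces other subunits and reduces calcium flow, had 13 and 14 UMIs in IL cells, or 51.2 ± 7.0 CPM, and 1 in pituicytes. The glutamate-binding GluN2 subunits, with which *Grin1* forms the usual channel, were scarcely counted in IL cells. *Grin2b* had 2 UMIs there and *Grin2a* 0, and *Grin2c* and *Grin2d* had a single UMI each, outside the cells kept. *Grin2a* had 4 UMIs in epithelial-like cells of pool 2, in 3 cells, and none in those of pool 1.

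**Figure D2:**
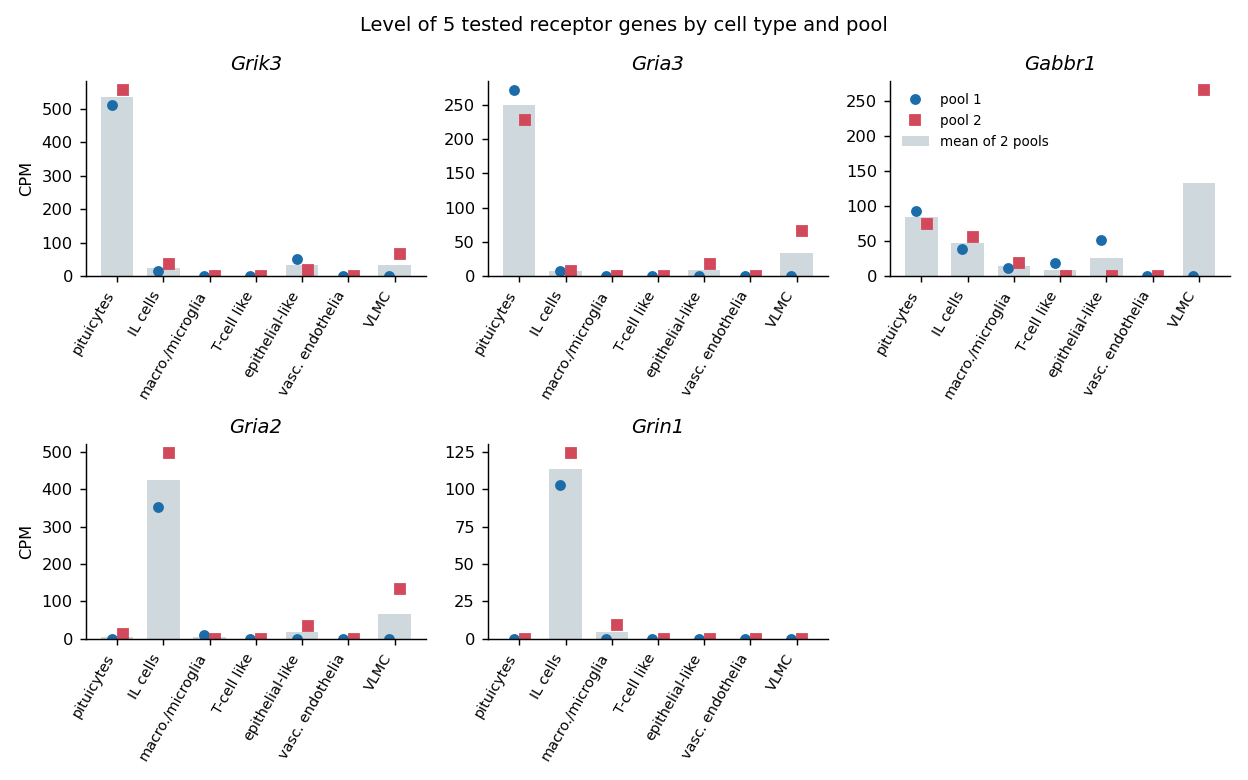
Level of 5 tested receptor genes in CPM (vertical axis, from 0) in each cell type, with the circle for pool 1, the square for pool 2 and the bar for their mean. *Grik3* lies at 513 and 556 in pituicytes, *Gria2* at 352 and 497 in IL cells, and *Gabbr1* in VLMC at 0 in pool 1 and 265 in pool 2.

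GABA-A receptor genes, whose chloride channels usually join alpha, beta and gamma subunits, belonged to IL cells as well. The 12 members summed to 349 ± 66.8 CPM in IL cells, 163 ± 62.7 in epithelial-like cells and 34.9 ± 4.7 in pituicytes (SD, n = 2). These sums rested on 184, 11 and 17 UMIs, and 11 of the 12 members had a UMI in IL cells. *Gabra2* had 24 and 29 UMIs in IL cells of pools 1 and 2 and 5 and 3 in pituicytes. *Gabrb1* had 20 and 21 UMIs and *Gabra4* 8 and 7 in IL cells, and both had 0 in pituicytes. For *Gabra2*, *Gabrb1* and *Gabra4* both IL pools thus exceeded both pituicyte pools, as read from these counts, without a share over all genes to set beside it. Against the limit that a count of 0 allows (3 UMIs over both pools), the ratio of IL cells to pituicytes was 12.6 for *Gabrb1* and 4.61 for *Gabra4*. Their 95% counting intervals began at 9.79 and 3.31. For *Gabra2* the ratio was 6.10 (95% counting interval 2.88 to 14.9). None of the 3 passed the filter on low counts. With the filter removed, edgeR called all 3 higher in IL cells, beside 14.2% of 16258 genes, with ln fold changes from 2.66 ± 0.45 for *Gabra2* (adjusted p = 2.29e-07) to 3.60 ± 0.54 for *Gabrb1* (adjusted p = 2.90e-09).

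*Gabrg1*, *Gabra2*, *Gabra4* and *Gabrb1* are neighbours on chromosome 5, between 70751047 and 72149037 of GRCm38, where *Gabra4* and *Gabrb1* stand head to head with their first bases overlapping. All 4 had UMIs in IL cells (6, 53, 15 and 41), and *Gabrg1* and *Gabra4* had them in no other type. At the level of single IL cells, 52 of 148 had a UMI of an alpha gene, 46 of a beta gene and 38 of a gamma gene, and 8 had all 3 kinds. At a median of 3249 UMIs per cell a missing subunit does not show that a cell lacks it.

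GABA-B receptors, which couple to G proteins and need both products of *Gabbr1* and *Gabbr2*, were seen nearly only through *Gabbr1*. It had 22 and 19 UMIs in pituicytes, or 93.4 and 75.0 CPM (84.2 ± 13.01, SD, n = 2), 11 and 14 in IL cells (47.6 ± 12.02 CPM), and 0 and 4 in VLMC. Both pituicyte pools lay above both IL pools, and the 4 VLMC UMIs of pool 2 (265 CPM) lay above all of them. This order was read from the counts, without a share over all genes beside it. *Gabbr1* was called higher in pituicytes (ln fold change 1.66 ± 0.47, SE, edgeR adjusted p = 0.00298), but not with DESeq2 (adjusted p = 0.324) nor against the summed other cells, where the difference was 0.77. Against the mean of the other types it was 2.13 without pool 1 and 2.33 without pool 2. Directly against IL cells the ln difference was 0.49 ± 0.35 (adjusted p = 0.382). *Gabbr2* had 1 UMI in the cells kept, in an IL cell.

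**Figure D3:**
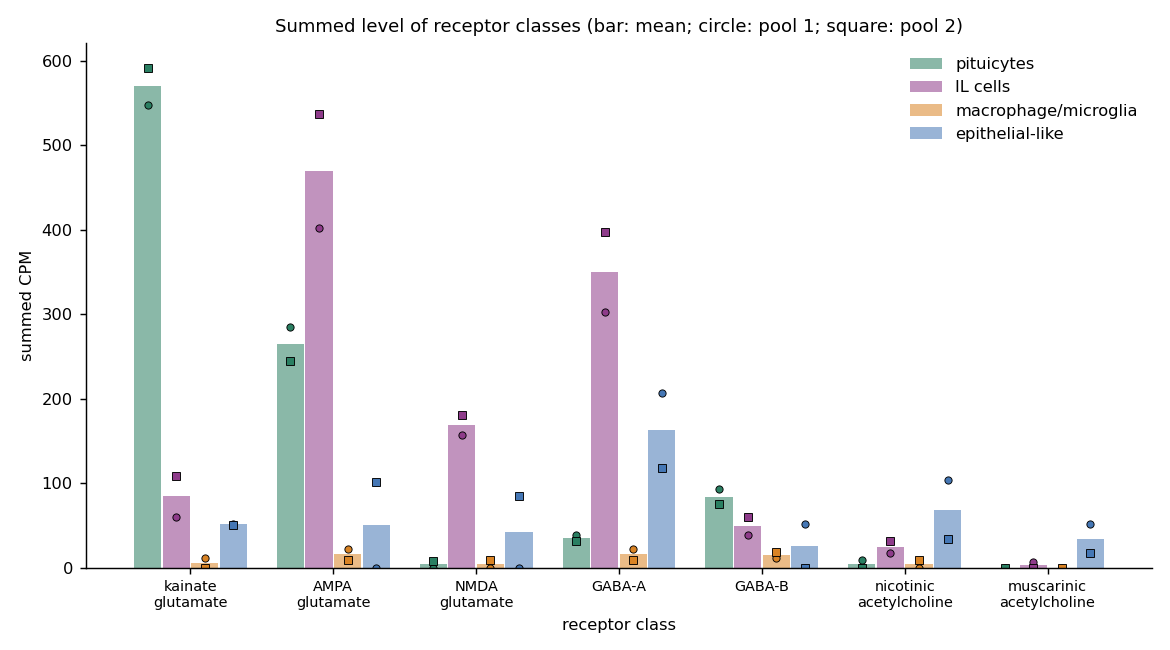
Summed CPM (vertical axis, from 0) of 7 receptor classes in 4 cell types, with bars for the mean of both pools, circles for pool 1 and squares for pool 2. Kainate genes lead in pituicytes (570), and AMPA (469), GABA-A (349) and NMDA genes (168) are high in IL cells. GABA-A genes reach 163 in epithelial-like cells, on 11 UMIs.

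Several further genes rested on few molecules. *Adra2c*, among 4 adrenergic receptor genes with a UMI, had 2 UMIs, both in VLMC, and does not stand for its class. Of 16 nicotinic acetylcholine receptor genes, 5 were members, led by *Chrnb2* with 3 and 5 UMIs in IL cells, and no alpha subunit gene had a UMI in any barcode. *Chrna1os*, an antisense RNA named for *Chrna1* and not a receptor, had 14 UMIs in pituicytes, 13 in IL cells and 5 in epithelial-like cells. Over both pools these were 28.6, 24.5 and 63.8 CPM, with the epithelial-like UMIs all in pool 2. *Chrm3*, a muscarinic receptor that couples to Gq, had 4 UMIs, all in vascular endothelia (1 and 3), in 3 of 13 cells. Among serotonin receptors, *Htr3a*, an ion channel subunit, had 6 and 2 UMIs in IL cells, and *Htr5b* 2 and 3 in pituicytes.

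The receptors for dopamine, opioids and the NH hormones were at or near the detection limit. *Drd2*, the receptor through which dopamine is known to restrain melanotropes, had 2 UMIs, both in IL cells of pool 1, in 2 of 148 IL cells (1.35%, 95% exact binomial interval 0.164 to 4.80%). No other dopamine receptor gene had a UMI in any barcode. *Oxtr*, the oxytocin receptor, had 1 UMI in a pituicyte of pool 2 and 1 in an IL cell of pool 1, and *Avpr1b*, a vasopressin receptor, had 2 UMIs in 1 epithelial-like cell. *Avpr2* and the kappa opioid receptor gene *Oprk1*, with 1 and 2 UMIs in all barcodes, had none in the cells kept. The mu receptor gene *Oprm1* had 1, in an IL cell. *Avpr1a* and the delta receptor gene *Oprd1* had 0 UMIs in all deposited barcodes of both pools. In 196 pituicytes, a count of 0 allows a share of up to 1.53% of cells with a UMI, so low levels of these receptors were not detectable at this depth.

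Pituicytes and IL cells, the types with most cells, were also compared directly. *Grik3* and *Gria3* were higher in pituicytes, 2 of 6 tested members beside 10.0% of all genes, by 2.96 ± 0.29 and 3.29 ± 0.38 on the natural log scale (SE, edgeR adjusted p = 7.58e-22 and 2.63e-16). In IL cells 3 of 6 were higher, *Grin1* and *Gria2* among them, beside 6.72% of all genes. These counts, too, were partly set by the filter on low counts. The ln difference, pituicytes minus IL cells, was -4.61 ± 0.68 for *Grin1* (adjusted p = 2.26e-10) and -4.13 ± 0.38 for *Gria2* (4.57e-26). As ratios of summed counts, *Grik3* was 21.9-fold (95% counting interval 12.6 to 41.6) and *Gria3* 33.1-fold (12.6 to 123) higher in pituicytes. *Gria2* was 68.5-fold (23.1 to 335) higher in IL cells. For *Grin1*, with 0 UMIs in pituicytes, the ratio was 18.4 against a limit of 3 UMIs, and its 95% counting interval began at 14.5. Without pool 1 the ln difference was 2.62 for *Grik3* and -3.73 for *Gria2*, and without pool 2 it was 3.39 and -5.76. With DESeq2, *Gria3* and *Grin1* received no adjusted p. The median mitochondrial share of UMIs was 14.9% in pituicytes and 9.90% in IL cells. In the 278 cells under 10%, *Grik3* differed by 2.88 (adjusted p = 2.54e-06) and *Gria2* by -2.91 (adjusted p = 2.59e-05), and the other members had too few UMIs to be tested.

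The authors' 11 clusters divide pituicytes into 3 groups, IL cells (deposited as neural progenitor a and b) and macrophage/microglia into 2 each. The deposited means, linear values per 10000 UMIs of a cell over both pools and without an error, were 5.67, 4.80 and 5.73 for *Grik3* in pituicytes a, b and c, and 2.70, 2.47 and 2.93 for *Gria3*. In CPM of the cells recovered for each cluster, *Grik3* was 568, 463 and 534, and the exact Poisson intervals overlapped (474 to 677, 338 to 620 and 430 to 656). *Gria2* was likewise close in the 2 IL clusters, with deposited means of 4.75 and 4.68. *Grin1* stood at 87.3 CPM in neural progenitor a and 143 in b, with overlapping intervals (56.5 to 129 and 99.8 to 199). *Gabbr1* had deposited means of 0.645, 1.64 and 0.842 in pituicytes a, b and c, on 13, 14 and 14 UMIs. In CPM it was 58.7, 144 and 82.2, and the intervals overlapped (31.2 to 100, 78.8 to 242 and 44.9 to 138). The intervals cover counting error only. Of the 40 members in the deposited table, 4 (*Chrm2*, *Grin1os*, *Gabbr2* and *Adrb1*) had a mean that differed by over 0.01 per 10000 from that of the recovered cells.

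**Figure D4:**
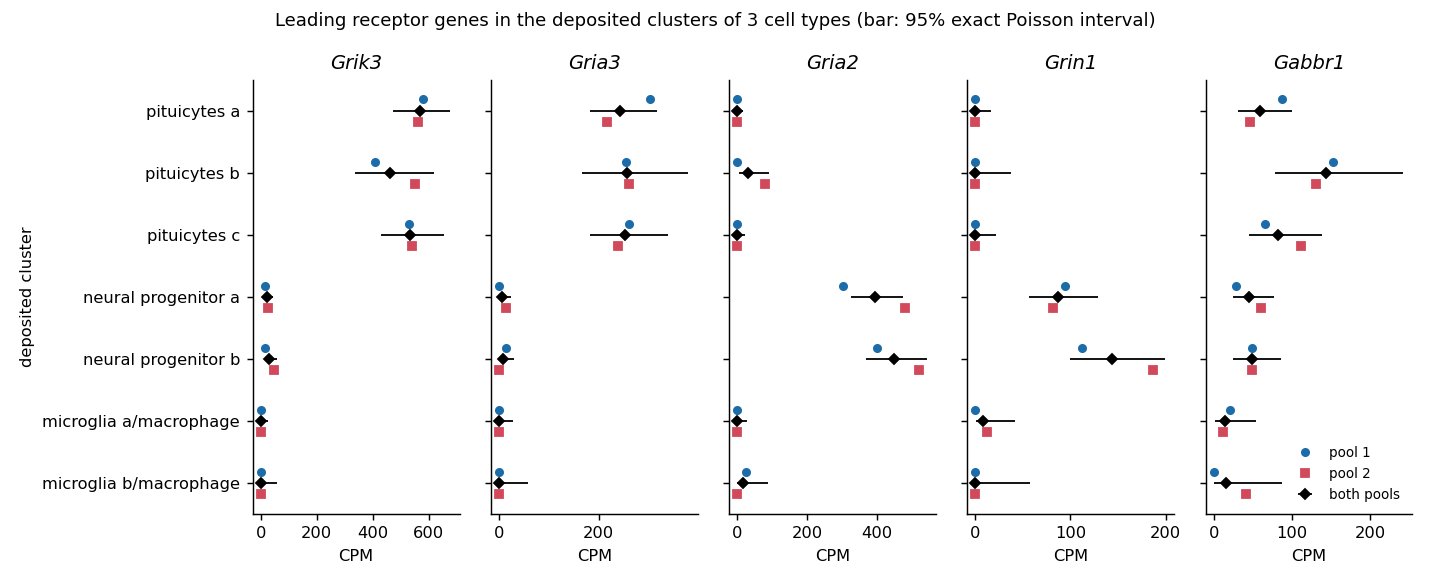
CPM (horizontal axes) of 5 receptor genes in the deposited clusters of pituicytes, IL cells (neural progenitor a and b) and macrophage/microglia, with circles for pool 1, squares for pool 2, and diamonds with 95% exact Poisson intervals for both. *Grik3* and *Gria3* lie close in the 3 pituicyte clusters, and *Gria2* and *Grin1* are high in both IL clusters.

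The share of cells with a UMI depends on depth, which was a median of 2055.5 UMIs in pituicytes, 3249 in IL cells and 1739 in macrophage/microglia. *Grik3* was found in 126 of 196 pituicytes (64.3%, 95% exact interval 57.1 to 71.0%), in 58.3% of pool 1 and 71.6% of pool 2, and in 12 of 148 IL cells (8.11%, 4.26 to 13.7%). In macrophage/microglia, which had no *Grik3*, 0 of 95 cells allow a share of up to 3.16%. *Gria3* was found in 82 pituicytes (41.8%) and 3 IL cells (2.03%), and 62 pituicytes held both genes. *Gria2* was found in 100 IL cells (67.6%, 59.4 to 75.0%) and 1 pituicyte (0.510%), and *Grin1* in 48 IL cells (32.4%) and 0 pituicytes. After each cell was thinned to 1000 UMIs, the share was 41.8% for *Grik3* and 24.0% for *Gria3* in pituicytes, and 34.5% for *Gria2* and 12.8% for *Grin1* in IL cells.

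**Figure D5:**
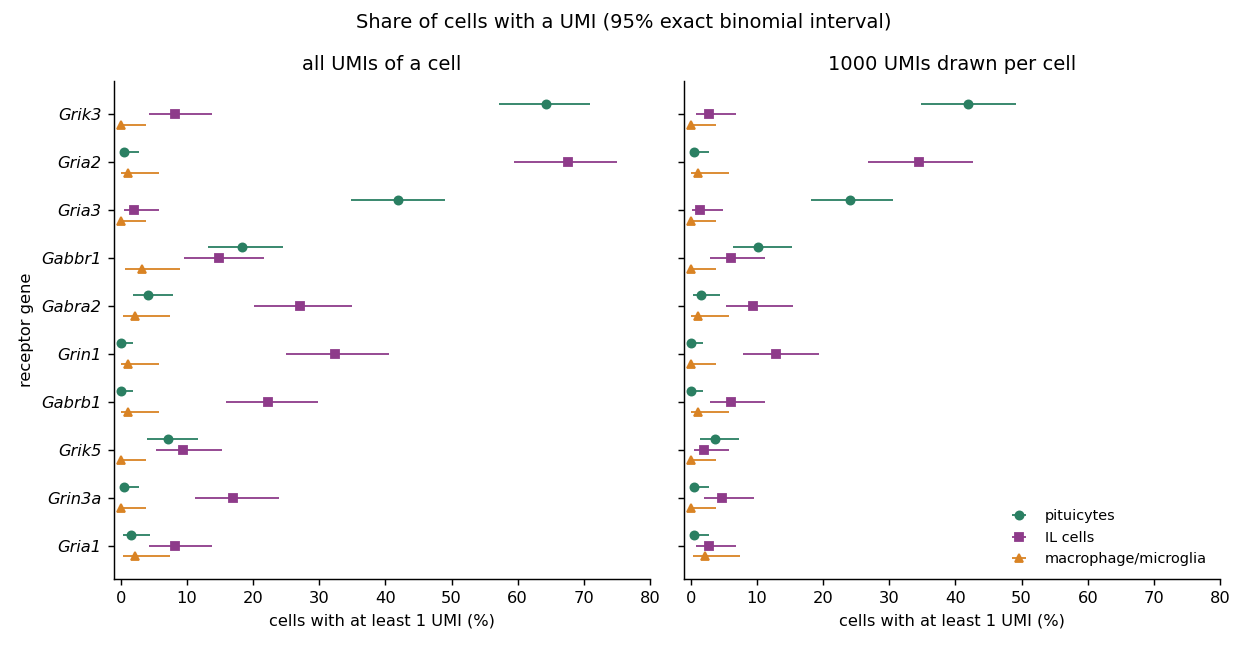
Share of cells with at least 1 UMI (horizontal axis, percent) for receptor genes reported here with 20 or more UMIs, in pituicytes (circles), IL cells (squares) and macrophage/microglia (triangles), with 95% exact binomial intervals, from all UMIs (left) and from 1000 UMIs drawn per cell (right). *Grik3* is in 64.3% of pituicytes before and 41.8% after thinning, and *Gria2* in 67.6% and 34.5% of IL cells.

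Free RNA was read from 157608 barcodes of pool 1 with 1 to 50 UMIs. *Grik3* made up 140 CPM there, the highest level of the members examined, *Gabra2* 38.6 and *Gria3* 31.2. Scaled by *Pomc* in immune cells, which put free RNA at 6.10% of UMIs in pool 1 and 5.19% in pool 2, it would give 3.84 of the 262 *Grik3* UMIs of pituicytes and 4.20 of the 13 of IL cells, and 0.159 of the 60 *Grin1* UMIs of IL cells. Whether the remaining *Grik3* UMIs of IL cells have another source was not tested.

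Genes beside these receptors were read from 2 lists, transmitter receptors with other symbols and genes that make, take up, break down or couple transmitters. Of 58 other receptor genes 4 were tested. *P2ry6*, *P2ry12* and *P2rx4*, receptors for nucleotides, were called higher in macrophage/microglia, beside 16.5% of all genes. The ln fold changes were 5.31 ± 0.52 and 5.21 ± 0.49 for *P2ry6* and *P2ry12* (SE, edgeR adjusted p = 1.70e-22 and 3.53e-25). *Ednrb*, an endothelin receptor, was called in epithelial-like cells (3.88 ± 0.38, adjusted p = 1.07e-21), beside 8.0% of all genes. Of 77 handling genes 21 were tested. Higher calls numbered 4 for pituicytes (beside 16.8% of all genes), 5 for IL (16.9%), 3 for macrophage/microglia (16.5%), 1 for T-cell like (9.47%), 4 for epithelial-like (8.0%) and 3 for VLMC cells (2.88%). Lower calls numbered 1 for pituicytes (*Glul*, beside 0.953% of all genes), 3 for T-cell like (*Glul*, *Slc6a6* and *Gabarapl1*, 2.75%) and 1 for VLMC cells (*Gnas*, 1.55%). The genes named next are the higher calls with the largest changes. *Slc1a3* and *Slc1a2*, the glial glutamate transporters, led in pituicytes, at 879 ± 65.5 and 99.2 ± 38.3 CPM (SD, n = 2), with ln fold changes of 3.95 ± 0.28 and 3.48 ± 0.56 (SE, adjusted p = 6.21e-42 and 1.35e-08). *Gnas* and *Gnao1*, G protein alpha subunits, led in IL cells (2.41 ± 0.17 and 2.34 ± 0.53, adjusted p = 1.12e-44 and 0.000117). *Arrb2* and *Adrbk2*, which act in receptor desensitization, led in macrophage/microglia (3.01 ± 0.48 and 2.58 ± 0.66, adjusted p = 4.39e-09 and 0.000697). *Arrb2* was also called in T-cell like cells (2.32 ± 0.69, adjusted p = 0.00717). In epithelial-like cells *Maob* (4.34 ± 0.73, adjusted p = 2.09e-07) and *Gabarapl1* (1.28 ± 0.30, adjusted p = 0.000488) led, and in VLMC *Gnao1* (2.67 ± 0.85, adjusted p = 0.0369) and *Slc12a2* (2.55 ± 0.69, adjusted p = 0.00666), of which *Gnao1* rested on 5 UMIs. *Gabarapl1* was also called in IL cells (1.38 ± 0.22, adjusted p = 1.06e-08) and *Slc12a2* in pituicytes (2.38 ± 0.40, adjusted p = 4.69e-08).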

How the data were processed

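For each pool the authors deposited a matrix of raw UMI counts, made with Cell Ranger 2.0.0 at 1500 forced cells after alignment to mm10. The submitters' notes also name STAR 2.5.1b and Seurat 2.3. Pool 1 came with 737280 barcodes, of which 170936 held a UMI, and pool 2 with 1500. The deposited cluster table holds a linear score, UMIs scaled to 10000 per cell and averaged by the authors over 11 clusters. Whether strand was used in counting is not given in the sources used here.

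Cells with more than 1000 and fewer than 10000 UMIs, 400 to 5000 genes and under 25% mitochondrial UMIs were kept. Their clusters were recovered by non-negative least squares of the deposited means, with a weight of at least 0.977 in 1 cluster, and merged by name into 7 types. Doublets were kept. The members and lists were chosen with earlier results of these data known.

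Counts were summed per pool and type (14 sums) and tested with edgeR 4.0.16 (R 4.3.3) by its quasi-likelihood test with TMM, a minimum count of 5 and total of 15, and Benjamini-Hochberg adjustment over 4510 genes. With 2 pools per type, the spread between pools was pooled over types (7 residual degrees of freedom) and moderated by edgeR over the genes tested. The p-values therefore rest largely on this shared spread and not on that of a single gene. The SE given with an edgeR fold change was derived from it, as its size over the square root of the F statistic, and was not estimated directly. Each pool supplies every type from its own mice, which pairs the sums. The pool differences of 2 types correlated across genes between -0.037 and 0.13, with a median of 0.027 over 21 pairs of types. In simulated sums, 40 to 88% of genes changed 4-fold were recovered, depending on the type. The changed genes were drawn from all genes tested, with a shared spread and the same baseline in all types. These shares therefore do not give the recovery for receptor genes with low counts. Alternatives were DESeq2 1.42.0, library size alone, no filter, the pool as a block, the summed other cells, reassigned cells, a mitochondrial limit of 10%, doublets removed (Scrublet in scanpy 1.11.5) and 1 pool left out. Per-million levels use all UMIs of a type. Each UMI stands for 1 molecule tagged at its end, so levels carry no length term. Intervals are at the 95% level, and with the limit of 3 counts for a 0 they cover counting error only.

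Some members are not reported here by name, though counts over the members include them. Otherwise named are all members called or with 20 or more UMIs, and the dopamine, opioid and hormone receptors whatever their level. From the 2 lists, the 2 higher calls of each type that changed most are named, with *P2rx4*, the lower calls of handling genes and further higher calls of the genes so named. Members with fewer UMIs were named after their values were seen. Gene positions are from GENCODE vM21 (GRCm38), found for all 57 members, and start windows from RefSeq (GRCm38.p6).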

Additional observations from a re-analysis of the deposited data

How the results depend on the processing

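Library size alone, the pool as a replicate block and removal of 5 Scrublet doublets gave the same counts of called members in every comparison. With the replicate block these were 3 for pituicytes, 3 for IL and 1 for macrophage/microglia, beside 16.1%, 16.3% and 16.1% of 4510 genes. For the same types the shares of all genes were 12.5%, 10.6% and 11.4% under library size alone. They were 16.7%, 18.1% and 17.3% of 4239 genes once doublets were removed. Without the filter on low counts, 49 members were tested, and 5 were called in pituicytes (adding *Grik5* and *Chrna1os*), 12 in IL cells and 8 in IL cells against pituicytes, beside 12.4%, 14.2% and 3.88% of 16258 genes. With DESeq2, 1 was called in IL cells (beside 4.61% of genes with an adjusted p) and 1 in each direction between pituicytes and IL cells (4.63% and 2.80%), where some members received no adjusted p. Against the summed other cells 8 of 15 tested were called in IL cells, beside 7.68% of 8995 genes. With 23 cells reassigned to types it was 5 of 7, beside 22.8% of 4935 genes. With a mitochondrial limit of 10%, which left 278 cells and 2 members tested, the number called was 1 for pituicytes, 1 for IL, 0 for macrophage/microglia, and 1 in each direction between pituicytes and IL cells, beside 9.11%, 11.5%, 17.2%, 6.99% and 4.87% of 2361 genes. The cause of these differences, the number of genes tested included, was not tested. No called member changed direction under any alternative. With 1 pool left out, which allows no test, the ln fold change was 3.84 to 5.05 for *Gria3*, 4.49 to 5.04 for *Grik3* and 2.13 to 2.33 for *Gabbr1* in pituicytes, and 4.32 to 4.54 for *Grin1* and 4.43 to 5.36 for *Gria2* in IL cells. The higher values for *Gria3*, *Grik3* and *Gria2* were those without pool 2. That pool held all VLMC UMIs of these genes and all epithelial-like UMIs of *Gria3* and *Gria2*. Between pituicytes and IL cells *Gria2* stood at -3.73 without pool 1 and -5.76 without pool 2, where its 3 pituicyte UMIs were counted. The cause of these shifts was not tested.

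Depth limits most of what can be said of these genes. A count of 0 over both pools allows 6.13 CPM in pituicytes and 5.65 in IL cells, but 126 in vascular endothelia and 127 in VLMC.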

Other observations

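The barcodes outside the cells kept held further receptor UMIs, which belong to no cell type here. Over all deposited barcodes, which were unfiltered in pool 1 but limited to 1500 in pool 2, the 57 members had 3054 UMIs. *Grik3* had 615 UMIs outside the cells kept against 278 within, *Gria2* 140 against 231 and *Grin1* 46 against 61. The 8 members without a UMI in the cells kept (*Avpr2*, *Chrm5*, *Gabrd*, *Grin2c*, *Grin2d*, *Grin3b*, *Htr7* and *Oprk1*) had at most 2 each in these barcodes. By cell, 136 of 148 IL cells had a UMI of at least 1 receptor gene, with a median of 3 genes and at most 9, and 166 of 196 pituicytes, with a median of 1 and at most 5. A UMI of a receptor gene was also found in 18 of 23 epithelial-like cells, 7 of 11 VLMC and 34 of 95 macrophage/microglia. It was found in 4 of 13 vascular endothelial and 3 of 42 T-cell like cells. In IL cells, which were read more deeply than the other types, 38 held both *Gria2* and *Grin1*.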
